A study of Mus musculus with 22 samples.

Results

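The neuromuscular junction genes described here are 10 genes whose products build or organise the synapse between motor nerve and muscle fibre: Colq, Ache, Chrna1, Chrnb1, Chrnd, Chrne, Chrng, Musk, Rapsn and Dok7. They were found by matching the gene identifiers of the count table to these symbols, which gave 10 of its 55487 genes, and all 10 were among the 15082 genes with enough counts to be tested. The study sequenced poly-A RNA of the soleus, a leg muscle of mixed slow and fast fibres, from male mice. Its title concerns thyroid hormone receptor alpha in skeletal muscle and thyroid thermogenesis. The WT vehicle group had 5 libraries, the WT T3 group 6, the KO vehicle group 4 and the KO T3 group 7, where KO stands for TRa1 KO and T3 is triiodothyronine, the active thyroid hormone. The labels give no age, strain, dose or duration of T3, and do not say whether the knockout covered all tissues or muscle alone. Whether each library came from a separate animal is not stated, and the p-values therefore reflect only the spread among these libraries, which may in part be technical.

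At the junction the nerve releases acetylcholine onto receptors that are packed densely in the muscle membrane. The adult receptor is a pentamer of alpha, beta, delta and epsilon subunits, encoded by Chrna1, Chrnb1, Chrnd and Chrne. In fetal or denervated muscle the gamma subunit, encoded by Chrng, takes the place of epsilon. Nerve-derived agrin acts through Lrp4 on the receptor kinase MuSK, which with its cytoplasmic activator Dok-7 and the scaffold rapsyn gathers the receptors. Acetylcholinesterase, encoded by Ache, ends the signal and is anchored in the synaptic cleft by ColQ, a collagen-like tail. In extrasynaptic nuclei of innervated fibres the receptor genes are kept low by electrical activity. Thyroid hormone receptors are nuclear receptors, and Thra encodes TRa1 together with other products. It has long been known that thyroid hormone shifts soleus fibres towards a faster type.

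The 250 bases before the start site are shown for 3 genes that were called in at least 1 comparison, and for Chrne, the adult subunit gene that was called in none, so that their regulatory letters can be compared. RefSeq (GRCm38.p6, the mm10 assembly) gave a promoter for 7 of the 10 genes. The windows are chr2:73580339-73580588 for Chrna1, chr11:69795938-69796187 for Chrnb1 and chr11:70619195-70619444 for Chrne, all on the minus strand, and chr4:58285712-58285961 for Musk on the plus strand. Each is written 5' to 3' along its gene, and capitals mark the E-box CANNTG, the site type of MyoD-family factors, and the N-box CCGGAA, the site type of GABP and related ETS factors.
Chrna1: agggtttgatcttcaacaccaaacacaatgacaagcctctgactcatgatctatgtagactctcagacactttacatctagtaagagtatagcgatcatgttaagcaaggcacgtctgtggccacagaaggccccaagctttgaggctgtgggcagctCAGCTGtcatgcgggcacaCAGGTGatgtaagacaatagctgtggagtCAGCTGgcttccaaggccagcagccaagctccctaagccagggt
Chrnb1: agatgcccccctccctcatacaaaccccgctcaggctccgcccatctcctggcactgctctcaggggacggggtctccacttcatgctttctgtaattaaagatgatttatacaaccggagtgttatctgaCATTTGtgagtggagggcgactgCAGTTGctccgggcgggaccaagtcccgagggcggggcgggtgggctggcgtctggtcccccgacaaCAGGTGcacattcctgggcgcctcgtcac
Musk: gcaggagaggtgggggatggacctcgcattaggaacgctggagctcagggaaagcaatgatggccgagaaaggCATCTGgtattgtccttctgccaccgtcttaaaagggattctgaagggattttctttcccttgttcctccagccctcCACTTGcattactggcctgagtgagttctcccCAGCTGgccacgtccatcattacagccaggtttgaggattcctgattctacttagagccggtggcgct
Chrne: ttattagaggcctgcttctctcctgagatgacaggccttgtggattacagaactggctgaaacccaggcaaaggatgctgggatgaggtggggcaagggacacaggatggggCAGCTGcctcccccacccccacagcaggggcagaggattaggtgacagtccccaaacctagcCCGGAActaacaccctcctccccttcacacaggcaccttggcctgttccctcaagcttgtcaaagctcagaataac
The Chrna1, Chrnb1 and Musk windows each hold 3 E-boxes. Chrne holds 1 E-box and 1 N-box, the only N-box in the 4 windows. Both strands were searched, and no motif overlapped another in these windows. An E-box stands in 66.2% of 32851 promoter windows of the same length and an N-box in 12.0%. The hexamer AGGTCA, a unit of thyroid hormone response elements, was also searched and stands in 14.0% of windows, and in none of the 4 shown. Of the windows not shown, that of Chrng, called in no comparison, also holds 3 E-boxes, and 1 of the 2 Dok7 windows holds AGGTCA. Both of these windows lie inside the span of their gene. The Chrng window is chr1:87205561-87205810, and the gene begins at 87204657. The Dok7 window is chr5:35056822-35057071, and the gene begins at 35056766. These letter matches are a description and not evidence of binding.

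Libraries held 14542548 to 75766782 counts. Levels are given in CPM, counts scaled to a common library size by TMM over the tested genes, and a gene is called where its edgeR quasi-likelihood p, adjusted by Benjamini and Hochberg across the 15082 genes, was below 0.05. The error given with a log2 fold change is its standard error (SE). Thra itself stood at 70.8 to 90.6 CPM in WT vehicle and 44.2 to 53.6 in KO vehicle, with no overlap, but at 19.3 to 58.9 in WT T3 and 21.2 to 39.8 in KO T3, with overlap. The labels do not say which exons were deleted, so the gene's total count is a limited check of the genotype. In 5 T3 libraries the transcript makeup stood apart. Replicates 1 and 3 of WT T3 together with replicates 2 and 3 of KO T3 took 21.7 to 23.7% of their nonmitochondrial counts from GC-rich genes (transcript GC of at least 54.7%), against 26.7 to 34.0% in the other 18. WT T3 replicate 5 took 17.4% of its nonmitochondrial counts from transcripts of at least 4522 bp, against 25.1 to 31.5% in the other 21. Mitochondrial transcripts took 11.2 to 29.5% of the counts of a library and are not part of these shares. Where leaving out these 5 libraries changed the call of a junction gene or of a named gene of the 7 lists below, or turned the sign of a junction gene's T3 value, this is said beside the value.

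The junction genes that were called did not move in 1 direction. With T3 in WT, 3 of 10 were called, 1 higher and 2 lower, against 3.31% of all genes tested. With T3 in KO, 1 of 10 was called, lower, against 2.72%. Between genotypes, 2 of 10 were higher in KO under vehicle, against 3.08% of all genes called. Under T3, 3 were higher and 2 lower in KO, against 5.57%. The median log2 fold change of the 10 was -0.23 for T3 in WT and -0.27 for T3 in KO, beside 0.01 and 0.02 over all tested genes. For KO against WT it was 0.24 under vehicle and 0.03 under T3, beside -0.02 and -0.00. The CPM ranges of the groups did not overlap for 3 of the 10 with T3 in WT (3.8% of all genes), 2 with T3 in KO (4.66%), 4 for KO under vehicle (9.1%) and 4 for KO under T3 (2.51%). With 10 genes chosen in knowledge of earlier results, these counts describe the set and do not test it.

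**Figure D1:**
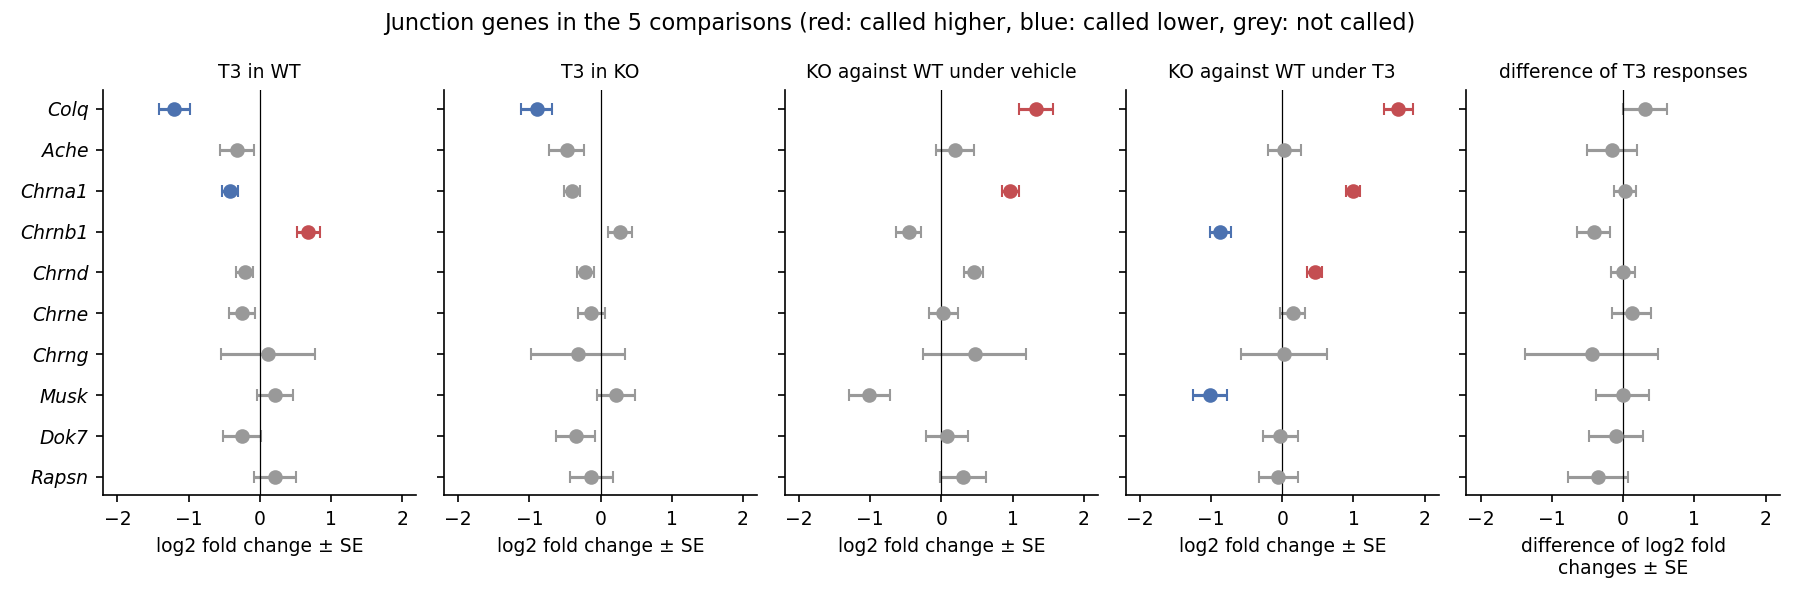
Log2 fold change of each junction gene, with its standard error, in each of the 4 comparisons and, in the right panel, the difference between the T3 responses of KO and WT. Red and blue points passed the adjusted p of 0.05, and Colq is the 1 gene coloured in all 4 comparisons, while no gene is coloured in the right panel.

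Scaled to the authors' gene length, the junction genes differed widely in level. For these 10 genes that length equals all annotated exonic bases, which can exceed a single transcript. It is 4623 bp for Ache, 4275 for Dok7 and 3803 for Colq, against longest coding transcripts of 2186, 2779 and 2867 bp. For Chrna1 both are 4386 bp. The order below and the length-scaled ratios depend on these lengths and were not computed with transcript lengths. CPM per kilobase of the authors' gene length (RPKM) averaged 14.8 for Chrna1 in WT vehicle, the highest of the 10, followed by Rapsn at 12.1, Musk at 11.5 and Chrnb1 at 10.3. Colq followed at 7.00 and Dok7 at 6.11, then Chrnd at 3.48, Chrne at 3.42 and Ache at 3.24. Chrng, the fetal subunit gene, was last at 0.141. In this order the library ranges of neighbours were apart between Chrna1 and Rapsn, Chrnb1 and Colq, Dok7 and Chrnd, and Ache and Chrng. Those of Rapsn, Musk and Chrnb1 overlapped from each to the next, as did Colq with Dok7, and Chrnd, Chrne and Ache. In KO vehicle the order was different: Chrna1 averaged 28.9 RPKM and Colq 17.5, while Chrnb1 averaged 7.50 and Musk 5.73.

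**Figure D2:**
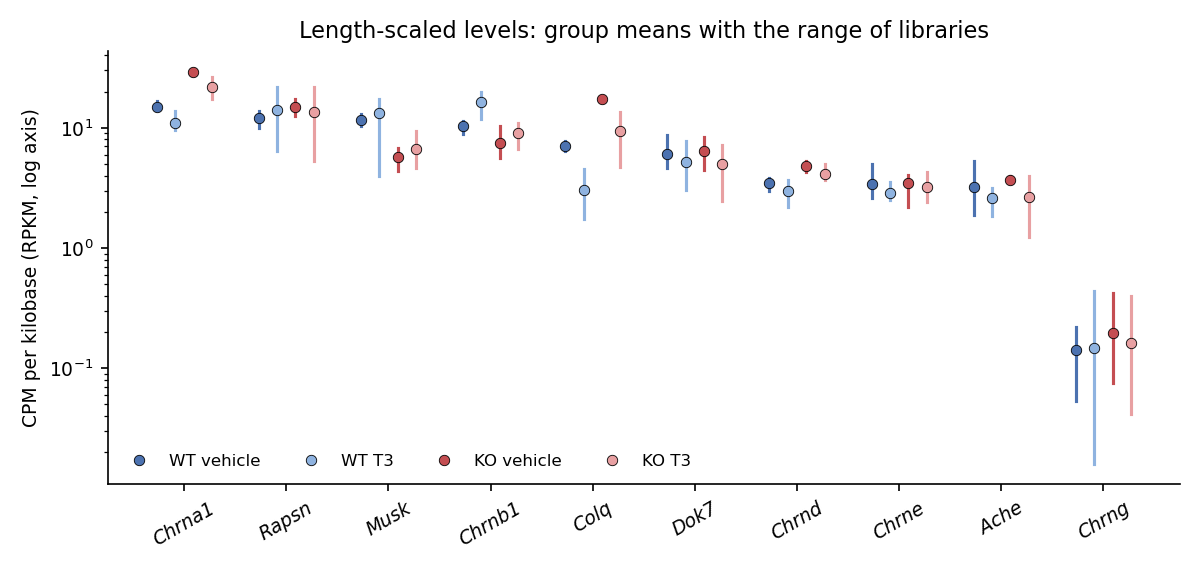
RPKM on a log axis for the 10 junction genes in the 4 groups, with points for group means and bars from the lowest to the highest library. The Colq means run from 3.04 in WT T3 to 17.5 in KO vehicle, and the Chrng libraries lie below those of the other 9 genes.

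Colq, the gene of the tail that anchors acetylcholinesterase, was lower with T3 in both genotypes and higher in KO under both treatments. It lies on mm10 chromosome 14 from 31523082 to 31591343 (ENSMUSG00000057606). The 5 WT vehicle libraries held 25.4, 29.5, 29.5, 24.2 and 24.5 CPM, and the 4 KO vehicle libraries 70.2, 66.2, 65.8 and 64.4. With T3, the 6 WT libraries ran from 6.63 to 17.3 CPM with a median of 10.3, and the 7 KO libraries from 17.8 to 51.0 with a median of 35.3. In each of the 4 comparisons the lowest library of 1 group was thus above the highest of the other.

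With T3, Colq fell by 1.20 ± 0.22 on the log2 scale in WT (edgeR adjusted p = 0.00214), from 26.6 ± 2.65 CPM (SD, n = 5) to 11.5 ± 4.11 (n = 6). In KO it fell by 0.89 ± 0.22 (edgeR adjusted p = 0.0261), from 66.6 ± 2.48 (n = 4) to 35.8 ± 10.7 (n = 7). The call in KO was lost when any of the 4 KO vehicle libraries was left out, with log2 fold changes of -0.94 to -0.87 and edgeR adjusted p of 0.0762, 0.0602, 0.0513 and 0.0540 for replicates 1 to 4. Without the 5 T3 libraries that stood apart, Colq gave -0.90 ± 0.16 in WT (edgeR adjusted p = 0.00382) and -0.73 ± 0.14 in KO (0.00492). Its transcript GC is 56.1%, and of those 5 libraries KO T3 replicates 2 and 3 held the lowest KO T3 values, 17.8 and 28.1 CPM. Between genotypes Colq was higher in KO by 1.32 ± 0.24 under vehicle (edgeR adjusted p = 0.00239) and by 1.63 ± 0.21 under T3 (edgeR adjusted p = 2.31e-05). The 2 T3 responses differed by 0.30 ± 0.31, with an approximate 95% interval from -0.31 to 0.91, so a difference of either sign was within the error. The annotation places 199 exonic bases of Colq (5.2%) on the same strand as the gene model Gm49387, which had a count of 0 in every library.

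Ache, the enzyme gene itself, was called in no comparison. WT vehicle libraries averaged 15.0 ± 6.14 CPM (SD, n = 5), WT T3 12.0 ± 2.66 (n = 6), KO vehicle 17.1 ± 0.926 (n = 4) and KO T3 12.3 ± 4.02 (n = 7). The log2 fold change was -0.32 ± 0.24 with T3 in WT, -0.48 ± 0.25 with T3 in KO, 0.19 ± 0.27 for KO under vehicle and 0.03 ± 0.23 for KO under T3, and edgeR adjusted p ran from 0.424 to 0.969. The WT vehicle libraries alone spanned 8.69 to 24.4 CPM, which covers the means of all 4 groups. Without the 5 T3 libraries that stood apart, the value with T3 was -0.08 ± 0.22 in WT and -0.30 ± 0.20 in KO. The length-scaled ratio of Colq to Ache, computed after the values had been seen and given without a test, averaged 2.52 ± 1.18 in WT vehicle, 1.17 ± 0.324 in WT T3, 4.75 ± 0.0939 in KO vehicle and 3.64 ± 0.730 in KO T3. Other cholinesterase genes were Bche, which encodes butyrylcholinesterase, and Prima1, which encodes a membrane anchor. Neither was called by edgeR, DESeq2 or limma voom in any comparison, with at most 1 at an unadjusted p under 0.05, and the values were 0.43 ± 0.17 for Bche (edgeR adjusted p = 0.177) and -0.00 ± 0.49 for Prima1 (0.999) with T3 in WT, a median of 0.21.

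Chrna1, which encodes the receptor's alpha subunit, was the most firmly called genotype difference among the subunits. The gene lies on chromosome 2 from 73563215 to 73580338 (ENSMUSG00000027107). WT vehicle libraries held 63.4, 73.6, 63.4, 61.8 and 61.9 CPM and KO vehicle libraries 121.7, 131.5, 122.3 and 131.6. With T3, WT libraries ran from 41.9 to 60.5 CPM with a median of 47.0 and KO libraries from 75.6 to 116.1 with a median of 100.03. Every KO library therefore stood above every WT library, whatever the treatment, and within each genotype every T3 library stood below every vehicle library.

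Chrna1 was higher in KO by 0.97 ± 0.12 on the log2 scale under vehicle (edgeR adjusted p = 4.59e-05) and by 0.99 ± 0.10 under T3 (edgeR adjusted p = 2.11e-06). With T3 it fell by 0.42 ± 0.11 in WT (edgeR adjusted p = 0.0315). In KO the value was -0.40 ± 0.11 with an edgeR adjusted p of 0.0544, just above the threshold. The responses of KO and WT differed by 0.02 ± 0.16, with an interval from -0.28 to 0.33. Both T3 calls lie near the threshold. In WT the call was lost without WT vehicle replicate 1, 2, 3 or 5 or WT T3 replicate 1, 4 or 6 (edgeR adjusted p of 0.0547 to 0.0997) and without the 5 T3 libraries that stood apart (-0.35, edgeR adjusted p = 0.155). The WT call was also lost with scaling by total counts, without a filter and in a fit of only the groups compared (edgeR adjusted p of 0.0645, 0.0839 and 0.0929). In KO, Chrna1 passed without those 5 (-0.46, edgeR adjusted p = 0.0236), under an offset for GC content and length (-0.47, 0.0125), and without WT vehicle replicate 4, WT T3 replicate 1, 2, 3 or 5, or KO T3 replicate 3 or 6 (edgeR adjusted p of 0.0215 to 0.0493).

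Chrnb1, the beta subunit gene, went the opposite way from Chrna1 in the comparisons where it was called. It lies on chromosome 11 from 69784036 to 69795943 (ENSMUSG00000041189), the chromosome of Thra, at a distance of 28.9 Mb. WT vehicle libraries held 26.9, 26.8, 25.8, 28.6 and 22.5 CPM and KO vehicle libraries 20.6, 14.3, 26.1 and 15.0. WT T3 libraries ran from 30.2 to 50.6 CPM with a median of 44.3, and KO T3 libraries from 17.0 to 28.0 with a median of 24.9. The 6 WT T3 libraries were thus above all 16 others, while the 2 KO groups overlapped each other and WT vehicle.

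With T3, Chrnb1 rose by 0.68 ± 0.16 on the log2 scale in WT (edgeR adjusted p = 0.0186), and in KO the value was 0.27 ± 0.17 (0.538). The difference between these responses was -0.41 ± 0.23, with an interval from -0.86 to 0.04 and an unadjusted p of 0.0885 from edgeR, so the responses were not shown to differ. Between genotypes it was lower in KO under T3 by 0.87 ± 0.15, a log2 fold change of -0.87 (edgeR adjusted p = 0.000519), and the value under vehicle was -0.46 ± 0.18 (0.206). The T3 call in WT was lost without WT vehicle replicate 3 (edgeR adjusted p = 0.0505), without WT vehicle replicate 5 (0.0640) and without the 5 T3 libraries that stood apart (0.58, edgeR adjusted p = 0.120). Both subunits enter the same receptor. The length-scaled ratio of Chrna1 to Chrnb1, again a description computed after the values had been seen, averaged 1.44 ± 0.147 in WT vehicle, 0.687 ± 0.172 in WT T3, 4.12 ± 1.26 in KO vehicle and 2.53 ± 0.749 in KO T3.

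Chrnd, the delta subunit gene, showed a smaller genotype difference in the direction of Chrna1. It lies on chromosome 1 from 87190607 to 87200070, beside Chrng. WT vehicle libraries held 12.5, 10.6, 11.6, 12.7 and 9.86 CPM and KO vehicle libraries 17.4, 14.1, 15.9 and 15.4. WT T3 libraries ran from 7.20 to 12.0 with a median of 9.84 and KO T3 libraries from 12.1 to 16.6 with a median of 13.4. The genotypes did not overlap under either treatment. Chrnd was higher in KO under T3 by 0.45 ± 0.11 (edgeR adjusted p = 0.0141), and the value under vehicle was 0.45 ± 0.13 (0.0623). The T3 call was lost in a fit of only the groups compared (edgeR adjusted p = 0.0630) and without the 5 T3 libraries that stood apart (0.0730), while the value under vehicle passed with DESeq2 (adjusted p = 0.0111), without those 5 libraries (edgeR adjusted p = 0.0298) and without WT T3 replicate 1, 2, 4, 5 or 6 or KO T3 replicate 3 (edgeR adjusted p of 0.0249 to 0.0485). With T3 the value was -0.21 ± 0.12 in both WT and KO, and neither was called.

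Chrne and Chrng, the adult and fetal alternatives, were called in no comparison. Chrne, on chromosome 11 from 70614883 to 70619194 and 28.1 Mb from Thra, averaged 5.78 ± 1.63 CPM in WT vehicle, 4.87 ± 0.635 in WT T3, 5.90 ± 1.45 in KO vehicle and 5.41 ± 1.15 in KO T3. Its log2 fold changes ran from -0.25 ± 0.19, with T3 in WT, to 0.15 ± 0.17, for KO under T3. Chrng averaged 0.588 ± 0.309, 0.614 ± 0.700, 0.820 ± 0.642 and 0.671 ± 0.527 CPM in the same order of groups. Its counts ran from 1 to 63 per library, and the standard errors of its log2 fold changes were 0.61 to 0.72, so a change such as that of Chrnb1 was not detectable in these libraries. Counts also varied at like depth, with 11, 63, 2 and 12 in WT T3 replicates 1 to 4, whose totals were 30080296 to 40647589. 

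**Figure D3:**
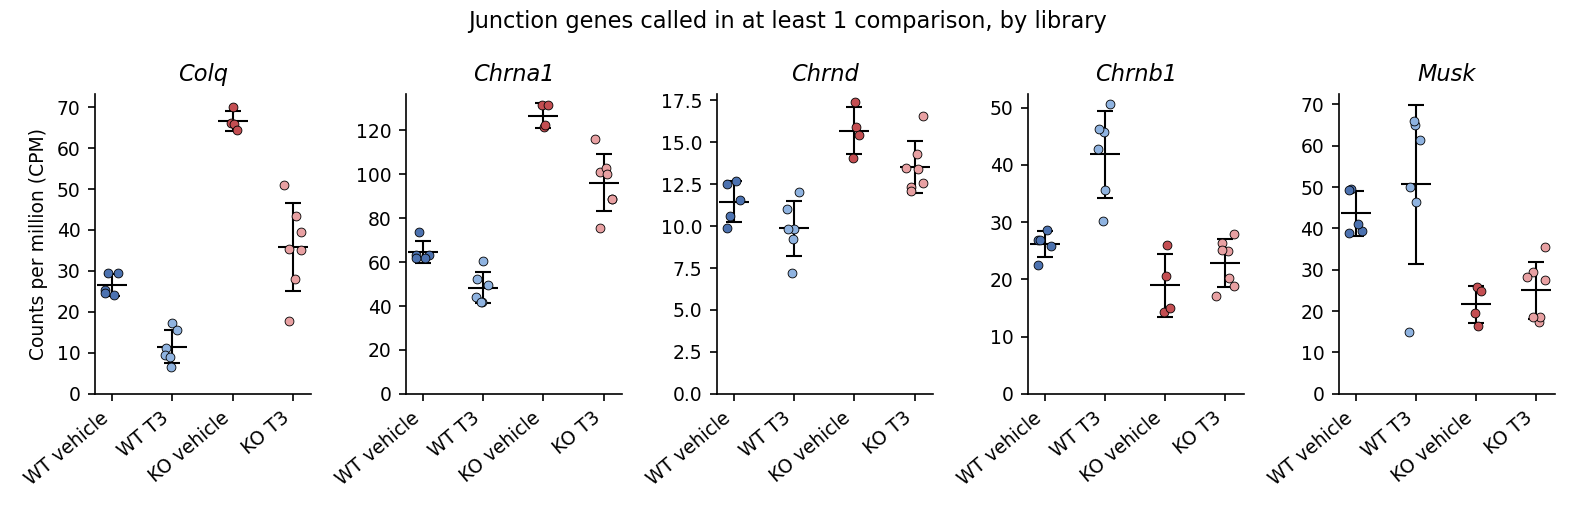
CPM by library for the junction genes called in at least 1 comparison, with a point for each library and a line and bar for the group mean and SD. For Colq and Chrna1 the groups do not overlap in any of the 4 comparisons, and 1 WT T3 library of Musk, at 15.0 CPM, lies below the other 5.

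Musk, which encodes the kinase that starts receptor clustering, was lower in KO. The gene lies on chromosome 4 from 58285960 to 58374302 (ENSMUSG00000057280). WT vehicle libraries held 38.8, 49.4, 39.4, 41.0 and 49.4 CPM and KO vehicle libraries 25.7, 19.4, 16.5 and 25.0. WT T3 libraries ran from 15.0 to 66.0 with a median of 55.7, and KO T3 libraries from 17.5 to 35.5 with a median of 27.6. Under vehicle the genotypes did not overlap. Under T3 they overlapped only through WT T3 replicate 5, at 15.0 CPM, the library with few counts from long transcripts, since the other 5 lay between 46.3 and 66.0. The longest coding transcript of Musk is 3422 bp, below the 4522 bp that defines long transcripts here. Over the 22 libraries, Pearson's r of Musk log2 CPM with the share from long transcripts was 0.69. The part of transcript makeup in the low Musk value was not tested.

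Musk was lower in KO under T3 by 1.01 ± 0.23, a log2 fold change of -1.01 (edgeR adjusted p = 0.00989), and the value under vehicle was -1.01 ± 0.29 (0.0600). The fit pools the spread of all groups, and without WT T3 replicate 5 the vehicle comparison gave -0.99 with an edgeR adjusted p of 0.00402. Without all 5 T3 libraries that stood apart, the values were -0.99 under vehicle (edgeR adjusted p = 0.00369) and -1.18 under T3 (0.00155). In a fit of only the T3 libraries the T3 call was lost (edgeR adjusted p = 0.0504). With T3 the value was 0.21 ± 0.26 in WT and 0.21 ± 0.27 in KO, neither called.

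Rapsn and Dok7, which encode the scaffold rapsyn and the MuSK activator Dok-7, were called in no comparison. Rapsn averaged 21.8 ± 3.29 CPM in WT vehicle, 25.4 ± 10.2 in WT T3, 26.8 ± 3.90 in KO vehicle and 24.4 ± 10.3 in KO T3. Dok7 averaged 26.1 ± 6.99, 22.1 ± 7.93, 27.6 ± 7.31 and 21.5 ± 7.59. The log2 fold changes of Rapsn ran from -0.13 ± 0.30 to 0.30 ± 0.32 and those of Dok7 from -0.35 ± 0.27 to 0.08 ± 0.29. In the T3 groups the 4 libraries with few counts from GC-rich genes were low for both genes. Rapsn stood at 9.46 to 15.4 CPM in those 4 and at 18.1 to 39.3 in the other 18, and Dok7 at 10.5 to 14.0 and 19.2 to 37.0. Ache stood at 5.67 to 9.24 CPM in the 4 and at 8.69 to 24.4 in the others. Transcript GC was 58.5% for Rapsn and 60.4% for Dok7 and Ache, the highest of the 10 genes. Without the 5 T3 libraries that stood apart, Rapsn gave 0.40 ± 0.14 with T3 in WT (edgeR adjusted p = 0.149) and 0.12 ± 0.13 in KO (0.723), where the sign turned. Dok7 gave 0.12 ± 0.21 with T3 in WT, against -0.25 ± 0.27 with all libraries, and -0.15 ± 0.19 in KO. The length-scaled ratio of Musk to Dok7, a description computed after the values had been seen, averaged 1.97 ± 0.434 in WT vehicle, 2.91 ± 1.68 in WT T3, 0.947 ± 0.384 in KO vehicle and 1.48 ± 0.663 in KO T3.

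**Figure D4:**
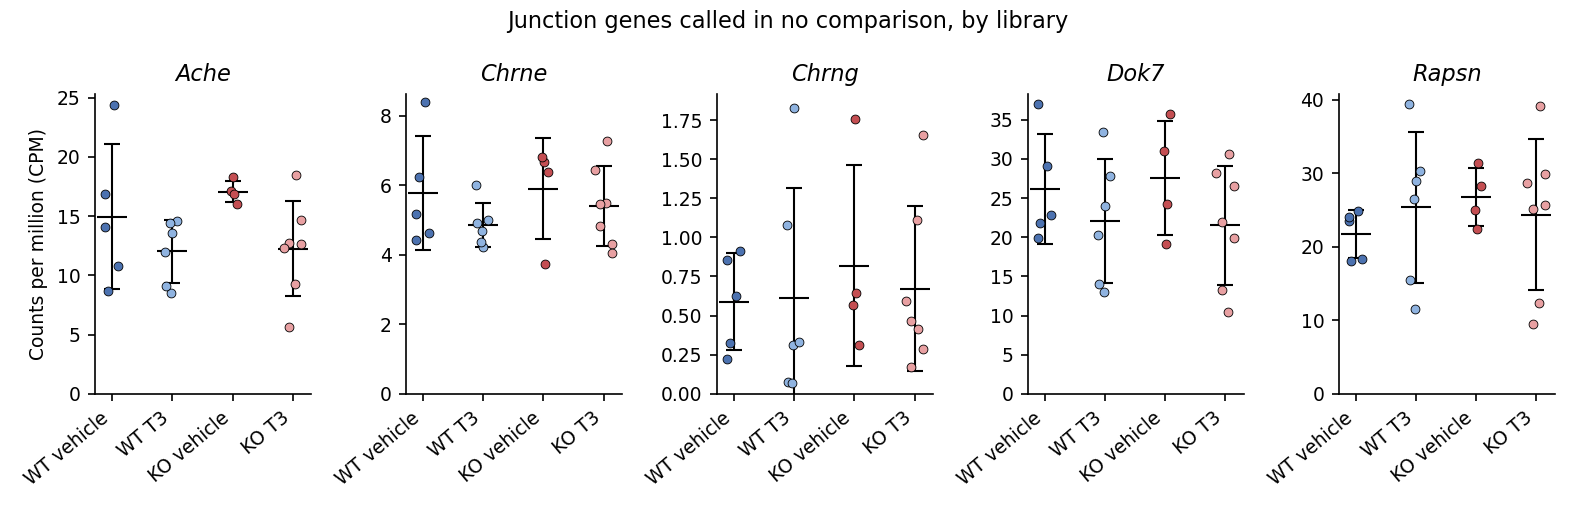
CPM by library for the 5 junction genes called in no comparison, with a point for each library and a line and bar for the group mean and SD. The groups overlap for each gene, and 2 libraries in each T3 group lie low for Rapsn and Dok7.

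**Figure D5:**
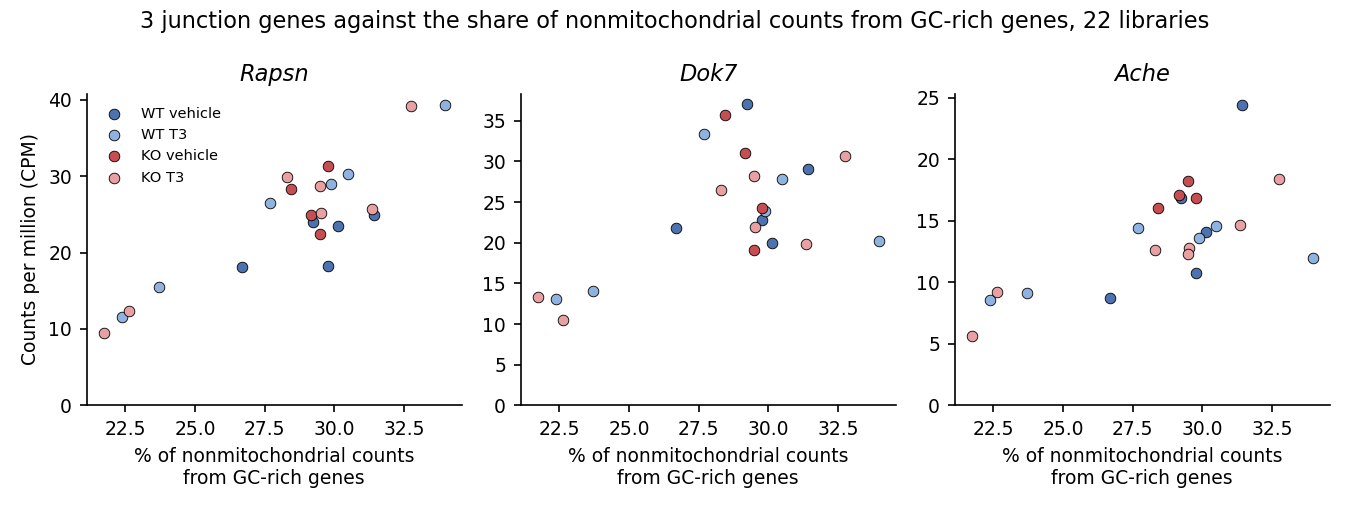
CPM of Rapsn, Dok7 and Ache against the percentage of nonmitochondrial counts that each of the 22 libraries took from GC-rich genes, with colours for the 4 groups. The 4 T3 libraries at 21.7 to 23.7% hold the lowest Rapsn and Dok7 values of all libraries.

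For the difference between the T3 responses of KO and WT, 0 of the 10 genes were called by edgeR, beside 0.00663% of all genes tested, which is 1 gene. None of the 10 reached an unadjusted edgeR p of 0.05, against 371 of all 15082 genes tested. DESeq2 and limma voom also called 0 of the 10. The T3 responses of WT and KO share no library, and 8 of the 10 genes had the same sign in both, against 69.9% of all genes. For KO against WT under vehicle and under T3, which share none either, 8 of 10 had the same sign, against 69.0%. The other pairs of comparisons share a group of libraries.

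Other genes of the junction were followed in 7 lists. Over all 15082 genes tested, 2590 had an unadjusted edgeR p under 0.05 with T3 in WT and 2057 with T3 in KO. For KO against WT there were 2131 under vehicle and 2647 under T3. Over all genes tested, edgeR called 3.31% with T3 in WT, 2.72% with T3 in KO, 3.08% in KO under vehicle and 5.57% under T3. These are the base for the counts in the lists below. Of 12 genes of agrin signalling, among them Agrn and Lrp4, edgeR called 0 in each comparison, with 2 or 3 at an unadjusted p under 0.05 in the 4 comparisons of groups. DESeq2 called 1 in each of those 4, and limma voom 1 with T3 in KO and 0 in the others. The median log2 fold change of the list was -0.10 with T3 in WT, 0.03 with T3 in KO, -0.09 in KO under vehicle and 0.04 in KO under T3. The smallest edgeR adjusted p with T3 in WT belonged to Pak1, a kinase of the actin cytoskeleton, at -0.88 ± 0.27 (0.0717), and its value with T3 in KO was -0.96 (0.0538). Without the 5 T3 libraries that stood apart, Pak1 passed in both, at -1.28 (edgeR adjusted p = 0.0283) in WT and -1.04 (0.0253) in KO. Next came Abl1, a tyrosine kinase, at -0.37 ± 0.17 (edgeR adjusted p = 0.261) with T3 in WT. Of 7 tested genes of neuregulin signalling and ETS factors, Etv5, an ETS transcription factor, was higher in KO by 0.39 ± 0.11 under vehicle (edgeR adjusted p = 0.0426) and by 0.32 ± 0.09 under T3 (0.0323). Its mean was 12.6 ± 1.18 CPM in WT vehicle and 16.5 ± 1.15 in KO vehicle. The others were not called, among them Etv4 at -0.68 ± 0.22 (edgeR adjusted p = 0.0916) and Erbb4, a neuregulin receptor gene, at -0.95 ± 0.36 (0.162) with T3 in WT. DESeq2 called Etv4 with T3 in WT (adjusted p = 0.0397), and edgeR did so without WT T3 replicate 5 or with the GC and length offset. The list's medians in KO were 0.05 under vehicle and 0.13 under T3, and -0.13 and -0.21 with T3 in WT and KO. Both Etv5 calls are near the threshold. Under vehicle the call was lost in 10 of 32 alternative fits, among them those without WT vehicle replicate 1, 3, 4 or 5, KO vehicle replicate 1, 3 or 4, or KO T3 replicate 1 or 6. Under T3 it was lost in 12, among them those without the 5 T3 libraries that stood apart (edgeR adjusted p = 0.0688) and without WT vehicle replicate 4, WT T3 replicate 1, 3, 4 or 6, or KO T3 replicate 1, 3, 4 or 7. The highest edgeR adjusted p over these fits was 0.187 under vehicle and 0.167 under T3.

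Of 13 genes known to respond to innervation, 2 were higher in KO under vehicle, and 4 were higher and 1 lower in KO under T3. Of all genes tested, 3.08% were called under vehicle and 5.57% under T3. With T3, edgeR called 0 in WT and 0 in KO, with 4 and 5 at an unadjusted p under 0.05, while DESeq2 called 1 and 0 and limma voom 0 and 1. In KO under vehicle 7 had an unadjusted p under 0.05, and DESeq2 called 5 and limma voom 2. The list's median was 0.19 in KO under vehicle and 0.44 under T3, and 0.02 and -0.15 with T3 in WT and KO. Fgfbp1, a growth factor binding protein gene, averaged 0.554 CPM in WT vehicle and 1.71 in KO vehicle (edgeR adjusted p = 0.0392), and 0.241 in WT T3 and 1.30 in KO T3, where it was higher by 2.31 ± 0.40 (0.000655). Dach2, a transcriptional corepressor gene, was higher under vehicle by 0.74 ± 0.20 (edgeR adjusted p = 0.0485). Myog, which encodes the E-box factor myogenin, averaged 5.26 ± 2.35 CPM in WT T3 and 10.3 ± 1.47 in KO T3 and was higher by 0.95 ± 0.23 (edgeR adjusted p = 0.0141). Myod1, which encodes the E-box factor MyoD, averaged 13.0 ± 5.34 and 5.03 ± 1.76 CPM in the same groups and was lower in KO under T3, at -1.37 ± 0.34 (edgeR adjusted p = 0.0157). Under T3, Hdac9, a class IIa deacetylase gene, was higher in KO by 0.76 ± 0.20 (edgeR adjusted p = 0.0195) and Ncam1, a cell adhesion gene, by 0.83 ± 0.20 (0.0151). Myh3, the embryonic myosin heavy chain gene, at -0.84 ± 0.35 (edgeR adjusted p = 0.215), and Hdac4, at -0.28 ± 0.16 (0.396), were not called with T3 in WT. With T3 in WT, Myod1 was at 1.22 ± 0.38 (edgeR adjusted p = 0.0790) and Fgfbp1 at -1.13 ± 0.44 (0.177). Myod1 passed with T3 in WT without the 5 T3 libraries that stood apart (edgeR adjusted p = 0.0317), with DESeq2, with the GC and length offset, and without WT vehicle replicate 4 or WT T3 replicate 3, with adjusted p down to 0.00282. Under vehicle, Myog was at 0.97 (edgeR adjusted p = 0.0542) and Ncam1 at 0.84 (0.0600) in KO against WT, close to their values under T3. They passed there in 14 and 11 of 32 alternative fits, among them DESeq2 and the fit without the 5 libraries (edgeR adjusted p = 0.0377 and 0.0214).

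The calls in this list differed in how firmly they stood. Those of Fgfbp1 and Myod1 under T3 held in all 32 alternative fits. Levels of Fgfbp1 were near 0, with 0 to 0.367 CPM in WT T3 libraries and 0.682 to 2.85 in KO T3 libraries. Without the 5 T3 libraries that stood apart, the calls of Myog (edgeR adjusted p up to 0.128 over all fits) and Ncam1 (up to 0.0943) were lost, and the call of Ncam1 was also lost without WT T3 replicate 3. That of Hdac9 was lost without WT T3 replicate 4 and in a fit of only the groups compared (up to 0.111). Under vehicle the call of Fgfbp1 was lost without WT vehicle replicate 1, 2, 3 or 5 or KO vehicle replicate 2, 3 or 4 (up to 0.150). That of Dach2 was lost in 20 of 32 fits (up to 0.202), among them those without any 1 of 18 of the 22 libraries.

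Of 16 genes of the synaptic basal lamina and cytoskeleton, edgeR called 0 with T3 in WT, with T3 in KO and between genotypes under vehicle, with 1, 3 and 2 at an unadjusted p under 0.05. DESeq2 called 0, 1 and 0 of them and limma voom 0. Under T3, Lama2, the laminin alpha 2 chain gene, was higher in KO by 0.51 ± 0.13 (edgeR adjusted p = 0.0237), and Col4a5, a collagen IV chain gene, by 0.94 ± 0.23 (0.0133). Both calls were lost without the 5 T3 libraries that stood apart, and that of Lama2 also without WT T3 replicate 3 or 4 or KO T3 replicate 2 or 3. Col4a5 in KO under vehicle, at 0.82 (edgeR adjusted p = 0.118), passed without those 5 (0.0366). The highest edgeR adjusted p over all fits under T3 was 0.131 for Lama2 and 0.173 for Col4a5. The list's median was -0.03 with T3 in WT, -0.17 with T3 in KO, 0.00 in KO under vehicle and -0.12 in KO under T3. With T3 in WT, Dtna, the dystrobrevin alpha gene, was at 0.31 ± 0.11 (edgeR adjusted p = 0.124) and Lama5 at -0.59 ± 0.30 (0.316). Of 5 glycosylation genes whose loss causes congenital myasthenia, Alg14 was higher with T3 in WT by 0.48 ± 0.12 (edgeR adjusted p = 0.0216), from 10.6 ± 1.62 to 14.8 ± 0.782 CPM, a call lost in 7 of 32 alternative fits, among them those without the 5 T3 libraries that stood apart (0.43, edgeR adjusted p = 0.0987) and without WT vehicle replicate 1, 3 or 4. The median of these 5 with T3 in WT was 0.17. Dpagt1, at 0.17 ± 0.11, and Gfpt1, at -0.20 ± 0.16, were not called, and in the other comparisons edgeR, DESeq2 and limma voom called 0 of the 5, with 0 to 2 at an unadjusted edgeR p under 0.05.

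Of 9 further acetylcholine receptor subunit genes, 4 were tested. Chrna10 was higher with T3 in both genotypes, by 0.70 ± 0.19 in WT (edgeR adjusted p = 0.0445) and by 1.00 ± 0.20 in KO (0.00787). WT libraries averaged 3.56 ± 0.706 CPM with vehicle and 5.77 ± 1.53 with T3, and KO libraries 2.96 ± 0.713 and 5.93 ± 0.986. The WT call was lost in 15 of 32 alternative fits (adjusted p up to 0.170), among them limma voom and those without the 5 T3 libraries that stood apart (0.56, edgeR adjusted p = 0.170), without WT vehicle replicate 1, 2, 3 or 5, WT T3 replicate 1, 2, 5 or 6, or KO T3 replicate 1, 5 or 6. The KO call held in all 32. The median of the 4 was 0.25 with T3 in WT and 0.16 with T3 in KO. Chrna4 was lower in KO under T3, at -2.36 ± 0.52 (edgeR adjusted p = 0.00673), but at levels near 0, with 0.321 CPM in WT T3 and 0.0601 in KO T3. With T3 in WT, Chrnb2, at 0.95 ± 0.43 (edgeR adjusted p = 0.248), and Chrna2, at -0.32 ± 0.27 (0.592), were not called.

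Fibre type markers differed between the genotypes under both treatments, where Colq and Chrna1 were called. Chrnb1, Chrnd and Musk were called between genotypes under T3 only. Of 10 slow fibre markers, 8 were higher in KO under vehicle and 9 under T3. Of 12 fast fibre markers, 8 were lower in KO under vehicle and 7 under T3. Of all genes tested, 3.08% were called between genotypes under vehicle and 5.57% under T3. With T3, 3.31% were called in WT and 2.72% in KO. Slow markers summed to 25536 to 37729 CPM in WT vehicle, 20518 to 30294 in WT T3, 50872 to 57854 in KO vehicle and 46056 to 53921 in KO T3. Fast markers summed to 32272 to 67450, 42148 to 59345, 12123 to 26549 and 16508 to 31262 CPM in the same order. With T3, 2 slow markers, Casq2 and Pln, were lower in WT and in KO, and 1 fast marker was higher in each, Mylpf in WT and Myh1 in KO. The part of fibre makeup in the junction gene differences was not tested. In bulk RNA, fewer fibres of a type and less RNA per fibre cannot be told apart.

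Nerve and glial transcripts were also followed, because a junction holds both. All 8 motor axon markers, among them Chat and Nefl, were under 0.5 CPM in every library, and edgeR, DESeq2 and limma voom called 0 of the 2 that were tested, with 1 at an unadjusted p under 0.05 in KO under T3 and 0 elsewhere. The cell bodies of motor neurons lie in the spinal cord and not in the muscle. Schwann cell markers summed to 86.9 to 412.7 CPM in WT vehicle, with a median of 89.4, 58.7 to 82.7 in WT T3, 81.6 to 175.3 in KO vehicle and 69.2 to 184.6 in KO T3, and none of the 8 was at 0. With T3 in WT, 2 of the 8, Mbp and Sox10, were lower by edgeR (limma voom called 0 and DESeq2 3), beside the lower Colq and Chrna1 and the higher Chrnb1. In that comparison 6 of the 8 had an unadjusted edgeR p under 0.05, against 2590 of all 15082 genes tested. Of all genes, edgeR called 3.31% there. The list's median log2 fold change was -1.24 with T3 in WT and -0.21 with T3 in KO. Mbp had a median of 30.9 CPM and a highest value of 127.3 in WT vehicle, against 13.3 to 22.3 in WT T3. The part of Schwann cell content in those results was not tested. No Schwann cell marker was called by edgeR, DESeq2 or limma voom in the other comparisons, with at most 1 at an unadjusted p under 0.05. Of the other 8 marker lists (satellite cell, fibroblast, endothelial, smooth muscle and pericyte, macrophage, erythroid, adipocyte and myotendinous junction), edgeR called 0 genes with T3. Between genotypes it called the haemoglobin gene Hbb-bt, higher in KO under vehicle, the macrophage gene Cd163, higher in KO under T3, and the endothelial gene Kdr, lower in KO under T3. In KO under vehicle all 5 erythroid markers had an unadjusted edgeR p under 0.05, with a median of 2.28, and DESeq2 called 2. Their sums were 43.9 to 70.0 CPM in WT vehicle and 33.4 to 981.9 in KO vehicle, with a median of 69.9. For the difference of T3 responses all 5 were again under 0.05, with a median of -2.71. The part of blood content in the junction gene results was not tested. With T3, 0 to 5 genes within each of these lists had an unadjusted edgeR p under 0.05. A single list had up to 3 in WT, and 5 of the 6 smooth muscle and pericyte markers were under 0.05 in KO. Within each list DESeq2 called up to 1 with T3 and limma voom 0.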

How the data were processed

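Soleus poly-A RNA was purified with RNeasy columns, made into libraries with a TruSeq Stranded mRNA protocol and sequenced from both ends at 51 bp, per the labels' protocols. Per the submitters' processing notes, mm10 was the build and the tools included edgeR 3.26.8, featureCounts 1.6.4 and STAR 2.7.3a. What annotation release and what strand option were used is not given in the sources used here. In the deposited table there are whole-number counts per gene for 22 libraries, with a gene length in bp, both made by the authors. If strand was not used in counting, a gene and its antisense partner cannot be told apart. 0 of 231 pairs of libraries were identical, and none was left out.

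Genes were kept by filterByExpr (minimum count 10) of edgeR 4.0.16 in R 4.3.3, which left 15082 genes with at least 99.939% of counts. All 4 groups were fitted together with TMM scaling and the quasi-likelihood test, over all tested genes. Standard errors are the log2 fold change over the square root of F, and intervals are 1.96 of them to each side. RPKM uses the authors' lengths. The steps were tested on simulated data. The 10 genes, the 7 junction lists and the 12 marker lists were chosen with earlier results of these data known. Of each junction list, the text names the genes called in any comparison and up to 2 more with the smallest adjusted p for T3 in WT. For each called member, the 5 tested genes with the highest correlation over the libraries are named, leaving out unnamed gene models. Alternatives were other scalings, filters and group choices, DESeq2 1.42.0, limma 3.58.1 voom, an offset for GC content and length, a fit without 5 T3 libraries, and leaving out each library in turn. Figures were drawn with matplotlib 3.10.9.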

Additional observations from a re-analysis of the deposited data

Results flagged for a closer look

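A library far from the rest of its group, by Dixon's 95% criterion, was found in 2 of the 40 groups examined, that is 10 genes in 4 groups, each with 4 to 7 libraries. Chance gives such a library in about 5% of groups. Chrna1 stood at 73.6 CPM in WT vehicle replicate 2, and the other 4 WT vehicle libraries lay between 61.8 and 63.4. Chrne stood at 3.75 CPM in KO vehicle replicate 3, and the other 3 lay between 6.38 and 6.82. Without WT vehicle replicate 2 the T3 response of Chrna1 in WT was -0.37 (edgeR adjusted p = 0.0997), so the call of this gene was lost. Chrne was called in no comparison with or without the library.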

How the results depend on the processing

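Of the 50 results for the 10 genes in 5 comparisons, 42 kept their call in every one of the alternative fits run (32, or 31 for the difference of responses), and 0 called results changed sign. The results whose call changed were Chrna1 and Chrnb1 with T3 in WT, Colq and Chrna1 with T3 in KO, Chrnd and Musk in KO under vehicle, and Chrnd and Musk in KO under T3. Of the 10 genes, 3 were called with T3 in WT, and 1 was called without the 5 T3 libraries that stood apart. Chrna1 was also lost there with scaling by total counts, without a filter and in a fit of only the groups compared (edgeR adjusted p of 0.0645, 0.0839 and 0.0929). With T3 in KO, 1 was called, and 2 with RLE or upper quartile scaling, a filter of 1 CPM in 4 libraries, DESeq2, the GC and length offset, or without those 5 libraries. In KO under vehicle 2 were called, and 4 with DESeq2, the offset, a fit of only the groups compared, or without those 5. Chrnd also passed there with RLE, upper quartile or total-count scaling (edgeR adjusted p of 0.0464, 0.0423 and 0.00581), and Musk without a filter (0.0487). In KO under T3 5 were called, and 3 in a fit of only the groups compared, while Chrnd was lost without those 5 libraries (edgeR adjusted p = 0.0730). Leaving out 1 library at a time gave 1 to 3 called genes with T3 in WT, 0 to 2 with T3 in KO, 2 to 4 in KO under vehicle, 5 in KO under T3 and 0 for the difference. Over all genes the number called ran from 284 to 854 with T3 in WT (499 as reported), 164 to 824 with T3 in KO (410), 212 to 1032 in KO under vehicle (465), 539 to 1478 in KO under T3 (840) and 0 to 3 for the difference (1). The causes were not tested. Scaling by total counts moved the median of all genes to 0.13 in KO under vehicle and 0.16 in KO under T3. Low counts that vary between libraries limit Chrng, and no paired analysis was possible because the replicate numbers follow accession order only and pair nothing.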

Other observations

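For each junction gene called in some comparison, the genes with the most alike pattern were found by Pearson's r of log2 CPM over the 22 libraries, among 13184 tested genes. The libraries share groups, depth and transcript makeup, so these values describe the pattern over the 4 groups and carry no test. Colq was most alike with Maged1 (r of 0.94), Rhpn2 (0.92), Aldh7a1 (0.92), Ttc7 (0.91) and Chrna1 (0.91), so that 1 of its 5 is another junction gene. Chrna1 was most alike with Rab11fip1 (0.92), Dpy19l1 (0.92), Acadsb (0.91), Tiam1 (0.91) and Zcchc24 (0.91). Chrnb1 was most alike with Frrs1 (0.91), Tpgs2 (0.88), Spag5 (0.88), Prelid3b (0.87) and Ctnnal1 (0.86). For Chrnd the 5 were Pabpc4 (0.89), Fam213a (0.88), Nme4 (0.86), Osbp2 (0.86) and Nrbp1 (0.86). For Musk they were Etl4 (0.90), Fyco1 (0.89), Best3 (0.89), Clec16a (0.88) and Golm1 (0.86). No gene stands in 2 of these lists.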
